A study of Mus musculus with 48 samples.

Results

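Solute carriers are membrane proteins that move small molecules and ions across the cell surface and across the membranes of organelles. The members described here are the genes of the count table whose symbol begins with Slc and a family number. Mitochondrial Slc25 carriers and the insulin-regulated glucose transporter Slc2a4 were left out. This gave 175 of the 14125 genes in the table. Of these, 5 carry the prefix but are not carriers (Slc2a4rg-ps, Slc4a1ap, Slc7a6os, Slc9a3r1 and Slc9a3r2). The other 170 were grouped by the substrate their family is known for.

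The study sequenced transcript 3′ ends in 48 samples from male C57BL6J mice, all of the mixed gastrocnemius, which is a muscle of the hindlimb. EtOH_CON mice (n = 10 samples) drank water with 1% ethanol as vehicle and ate the control diet, and EtOH_ATGLi mice (n = 10 samples) drank the same water and ate diet with 571 mg/kg atglistatin. Cort_CON mice (n = 14 samples) drank water with 100 ug/ml corticosterone, the main glucocorticoid of mice, on the control diet, and Cort_ATGLi mice (n = 14 samples) drank corticosterone water on the atglistatin diet. Treatment lasted 2 weeks in each group. Atglistatin inhibits adipose triglyceride lipase (ATGL), which starts the breakdown of stored triglyceride, and was given through the food, so that every tissue could be exposed. Whether the corticosterone water held ethanol is not recorded in the sources used here, so corticosterone and ethanol cannot be told apart if it did not. The labels list the strain and no engineered allele, and no age is given for them here. The labels call 9 of the Cort_CON samples diabetic and all other samples nondiabetic.

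Skeletal muscle takes up amino acids through sodium-coupled carriers and through exchangers paired with the heavy chain Slc3a2, and it releases amino acids, glutamine above all, when its protein is broken down. Glucose enters through GLUT carriers, lactate leaves through proton-coupled monocarboxylate carriers, and sodium-driven exchangers remove calcium and protons after contraction. Glucocorticoids are known to promote muscle protein breakdown and to lower insulin-stimulated glucose uptake.

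Total counts ran from 10453888 to 24034481 per library. Muscle fibre markers (10 genes, among them Ckm, Acta1 and Mylpf) summed to between 84840 and 170000 CPM (read counts scaled for library size) over all libraries. Each library was correlated with the rest of its group. The lowest medians belonged to p01 in EtOH_CON (r 0.952) and to p41 in Cort_ATGLi (r 0.957), and the counts of changed members are also given with both left out. Among members with a group mean of at least 1 CPM, the median coefficient of variation between libraries was 20.5% in EtOH_CON, 19.4% in EtOH_ATGLi, 25.8% in Cort_CON and 23.7% in Cort_ATGLi. A filter on low counts kept 160 members for testing and removed 15, whose means lay between 0.201 and 0.444 CPM. The removed members were Slc12a5, Slc16a12, Slc16a8, Slc1a4, Slc22a21, Slc28a1, Slc2a13, Slc2a9, Slc37a1, Slc37a2, Slc39a8, Slc6a17, Slc6a4, Slc8a1 and Slc8a2. Of the tested members, 137 had a median above the filter's level of 0.728 CPM in all 4 groups, 12 in some groups and 11 in none.

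Promoter sequences are shown for the pair of rising and the pair of falling members with the smallest p under corticosterone on the control diet among members with a window (Slc2a3 has none), together with the only member whose window holds the glucocorticoid response element searched. Each run is the RefSeq window of 300 bases on GRCm38.p6, from 250 bases before to 50 bases after the annotated start, 5′ to 3′ on the gene's strand. Capitals mark the glucocorticoid response element, which reads G, any base, ACA, 3 bases of any kind, TGT, any base and C, and the runs without capitals hold none. Slc30a2, which loads zinc into vesicles, lies on the plus strand at chr4:134343216-134343515. Slc17a7, a vesicular glutamate transporter, lies on the plus strand at chr7:45163671-45163970. Slc8a3, a sodium-calcium exchanger, lies on the minus strand at chr12:81333131-81333430. Slc41a3, a magnesium carrier, lies on the plus strand at chr6:90618996-90619295. Slc10a6, a sodium-coupled carrier of sulphated steroids, lies on the minus strand at chr5:103629354-103629653.
Slc30a2: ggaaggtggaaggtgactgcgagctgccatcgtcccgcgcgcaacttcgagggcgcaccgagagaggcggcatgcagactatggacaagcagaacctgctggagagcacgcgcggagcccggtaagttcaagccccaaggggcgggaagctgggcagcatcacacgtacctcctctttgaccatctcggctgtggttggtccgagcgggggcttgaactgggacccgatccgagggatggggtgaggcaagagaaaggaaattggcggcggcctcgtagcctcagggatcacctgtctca
Slc17a7: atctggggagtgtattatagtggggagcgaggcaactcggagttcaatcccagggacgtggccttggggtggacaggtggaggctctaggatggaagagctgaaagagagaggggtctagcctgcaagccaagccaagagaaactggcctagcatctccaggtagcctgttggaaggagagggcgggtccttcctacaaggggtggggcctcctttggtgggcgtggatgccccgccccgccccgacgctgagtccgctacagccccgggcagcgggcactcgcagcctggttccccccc
Slc8a3: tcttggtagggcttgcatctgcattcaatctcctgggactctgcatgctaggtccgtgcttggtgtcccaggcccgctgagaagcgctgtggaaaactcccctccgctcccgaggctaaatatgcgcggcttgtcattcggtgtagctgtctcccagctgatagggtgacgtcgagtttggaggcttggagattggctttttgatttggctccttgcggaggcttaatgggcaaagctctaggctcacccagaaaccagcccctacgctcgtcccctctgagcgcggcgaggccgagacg
Slc41a3: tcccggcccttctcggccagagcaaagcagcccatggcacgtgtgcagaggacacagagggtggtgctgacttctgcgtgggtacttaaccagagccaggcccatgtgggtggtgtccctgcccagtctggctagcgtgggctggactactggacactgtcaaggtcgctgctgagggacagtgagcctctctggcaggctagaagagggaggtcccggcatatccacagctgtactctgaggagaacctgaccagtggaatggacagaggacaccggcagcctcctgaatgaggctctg
Slc10a6: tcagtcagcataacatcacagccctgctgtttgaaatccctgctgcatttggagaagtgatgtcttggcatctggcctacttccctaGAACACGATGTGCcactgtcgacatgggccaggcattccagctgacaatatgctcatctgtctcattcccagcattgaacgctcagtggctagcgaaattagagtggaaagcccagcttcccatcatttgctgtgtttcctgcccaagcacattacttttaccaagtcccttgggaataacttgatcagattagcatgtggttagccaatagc

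Such windows were found for 137 of the 175 members, 184 windows in all. The element in the Slc10a6 window begins 163 bases before the start (position -163) and reads GAACACGATGTGC. Over both strands, the pattern stood in 1 of the 184 member windows (0.543%) and in 156 of the 32851 windows of all genes (0.475%). The amino acid response element TGATGNAA was in 7 member windows (3.8%) against 3.97% of all windows, and 1 of its 6 genes was Slc15a5. The metal response element TGCNCNC, a short pattern that matches often, was in 111 member windows (60.3%) against 51.0% of all, with 3 matches in the Slc30a2 run, 1 each in the Slc17a7 and Slc41a3 runs and 0 in the Slc8a3 and Slc10a6 runs. The FoxO element TGTTTAC was in 1 member window, that of Slc5a6, against 3.65% of all windows. Each pattern was counted on its own, so matches of different patterns may overlap, and the counts describe letters in the windows only.

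Corticosterone changed the mRNA of many solute carriers, in both directions. On the control diet 32 of the 160 tested members rose and 33 fell at an adjusted p under 0.05 in edgeR's quasi-likelihood test with Benjamini-Hochberg adjustment over all genes tested, which is 40.6% of members. Over all genes, 38.4% passed the same threshold (18.9% higher, 19.5% lower), so the members' share lay near the background. Their median log2 fold change was -0.058, beside -0.0011 over all genes. A called change of at least 2-fold was found for 15 of the 160 tested members, beside 7.47% of all genes. The CPM values of Cort_CON and EtOH_CON did not overlap for 11 of the 160, beside 4.71% of all genes. The 15 include Slc17a7, Slc22a12 and Slc6a2, and the 11 include Slc17a7 and Slc6a2. These genes were tested through the groups where they are high, as described below.

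On the atglistatin diet corticosterone raised 29 members and lowered 23, or 32.5%, beside 30% of all genes (15% higher, 15% lower). The median member changed by -0.038 (log2), beside -0.0016 over all genes. A called change of at least 2-fold was found for 11 of the 160 tested members, beside 5.13% of all genes. The 11 again include Slc17a7, Slc22a12 and Slc6a2. The values of Cort_ATGLi and EtOH_ATGLi did not overlap for 5 of the 160, beside 3.45% of all genes. The comparisons on the 2 diets share no library, although 1 fit gave both. Of the members that rose, 26 rose on both diets, which is 81.2% of the control diet list and 89.7% of the atglistatin diet list. Of those that fell, 20 fell on both, 60.6% and 87.0% of the lists. No member called on both diets moved in opposite directions. The same overlap was not computed over all genes, so this agreement is not shown to be particular to the members. With EtOH_CON p01 and Cort_ATGLi p41 both left out, 32 rose and 33 fell on the control diet, beside 38.4% of all genes (18.7% higher, 19.7% lower). On the atglistatin diet 29 rose and 28 fell in that fit, beside 31.2% of all genes (15% higher, 16.2% lower).

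**Figure D1:**
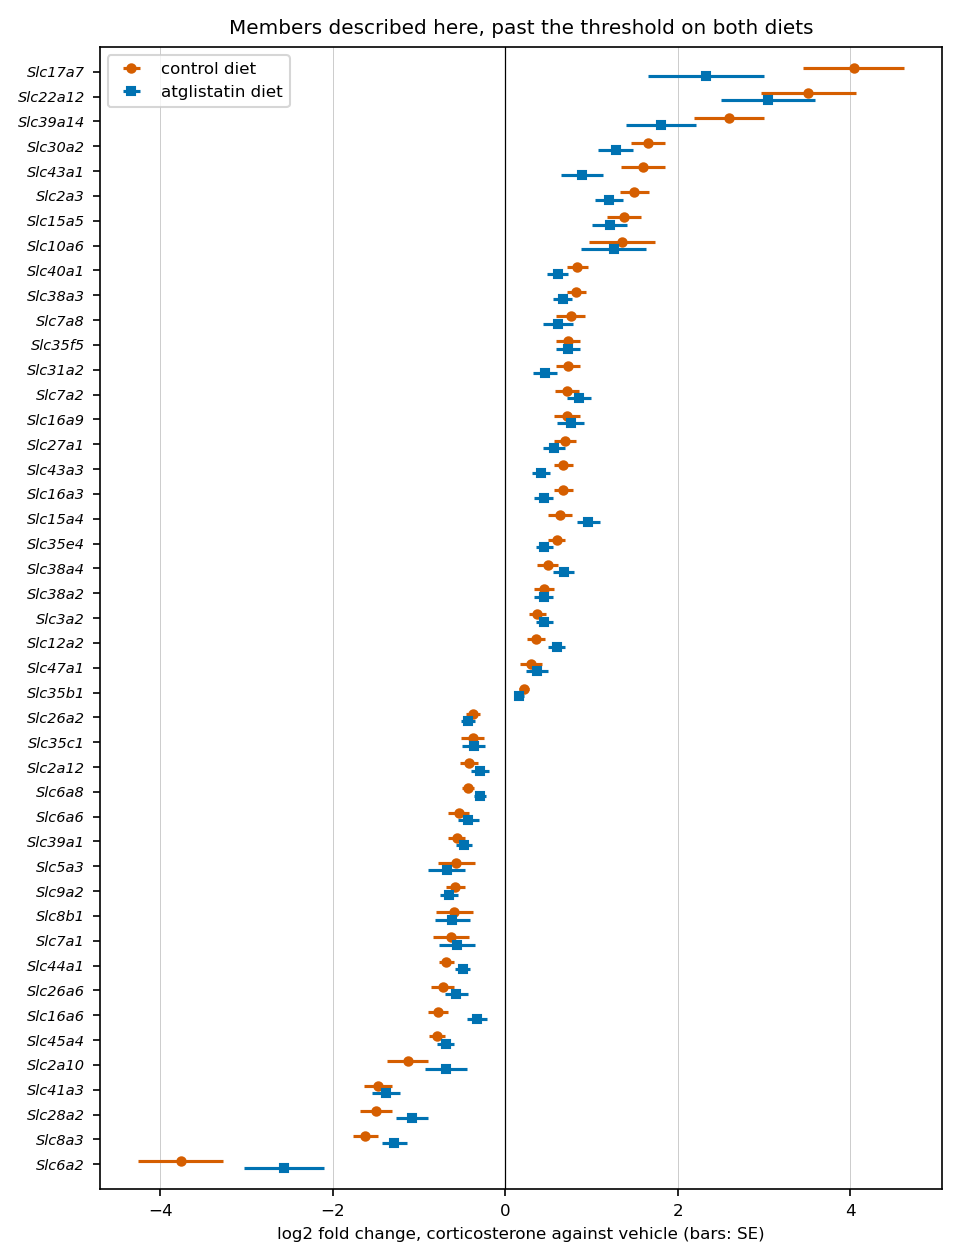
Log2 fold change of corticosterone against vehicle (x axis) for the members described here that passed the threshold on both diets (y axis), ordered by the value on the control diet, with circles for the control diet, squares for the atglistatin diet and bars for the SE. Each member plotted lies on the same side of 0 on both diets. Slc17a7, Slc22a12 and Slc6a2 lie farthest out and have few counts in one or both of the groups compared.

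By substrate, 11 of 32 tested amino acid carriers rose and 5 fell on the control diet, 50.0% called beside 38.4% of all genes (18.9% higher, 19.5% lower). Of 11 sugar carriers 1 rose and 5 fell. Of the 28 ion carriers 3 rose and 7 fell (35.7%), and of the 25 metal carriers 4 rose and 5 fell (36.0%), shares near that of all genes. All 5 tested carboxylate carriers changed, 2 upward and 3 downward. Of the 20 carriers of lipids, choline and organic ions 5 rose and 4 fell, of the 25 carriers of nucleosides and nucleotide sugars 5 rose and 4 fell (36.0%), and of the 9 vitamin carriers none passed edgeR's threshold (1 at an unadjusted p under 0.05). The classes were not tested against each other.

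**Figure D2:**
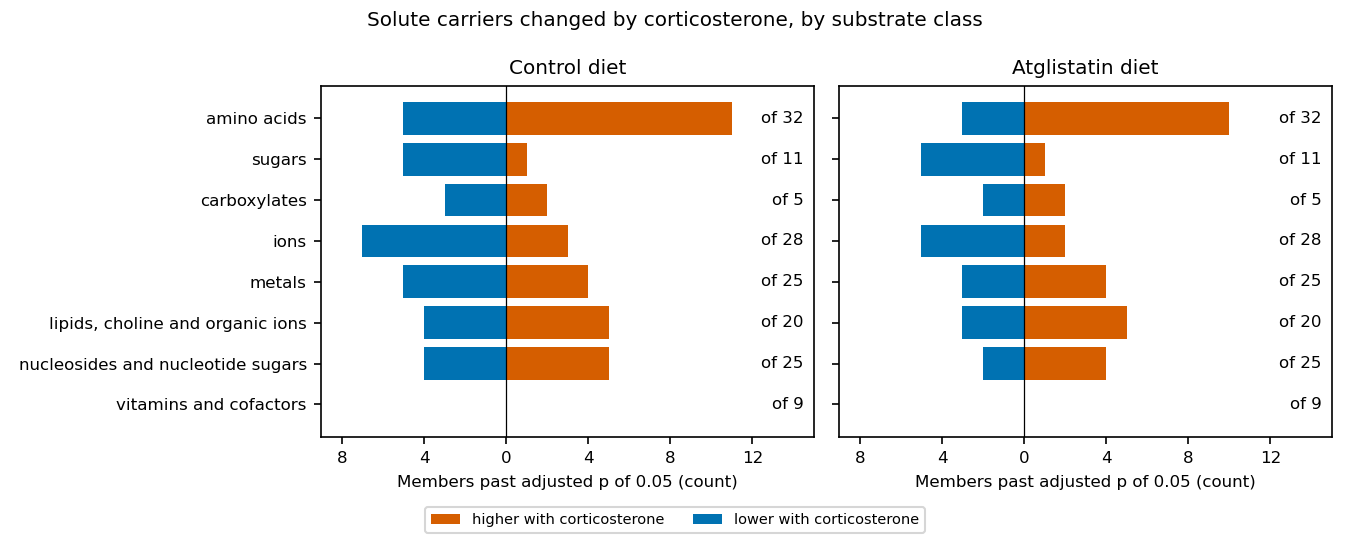
Number of members past the threshold (x axis, counts to the left lower and to the right higher with corticosterone) in each substrate class (y axis) on the control diet and the atglistatin diet, with the number tested at the right of each row. Amino acid carriers show 11 and 10 rises on the 2 diets, sugar carriers 5 falls on each, and vitamin carriers none.

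RNA markers of other cell types moved in the same comparisons. Of 10 markers of fibro-adipogenic progenitors, the connective tissue cells of muscle, 9 were lower on the control diet and 10 on the atglistatin diet, and their sum ran from 1586 to 2412 CPM in EtOH_CON, 1361 to 2284 in EtOH_ATGLi, against 873 to 1721 in Cort_CON and 1012 to 1308 in Cort_ATGLi. Of 8 tendon markers 6 were lower and 1 higher on the control diet (7 and 1 on the atglistatin diet), with sums of 257 to 517, 227 to 575, 90.2 to 243 and 86.3 to 158 CPM in the same order. Endothelial markers had 5 of 10 lower and 1 higher on each diet, with sums of 191 to 238, 151 to 259, 129 to 286 and 152 to 264 CPM. Macrophage markers had 7 of 12 lower and 1 higher on the control diet (5 and 1 on the atglistatin diet), summing to 107 to 196, 105 to 164, 82.2 to 154 and 79.0 to 293 CPM.

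Other marker lists moved less evenly. Smooth muscle and pericyte markers had 5 of 8 lower on the control diet and 2 on the atglistatin diet, and Schwann cell markers 3 of 8 and 0. Erythroid markers had 4 of 5 higher on the control diet and 1 on the atglistatin diet. Adipocyte markers had 2 of 9 higher on each diet and 2 lower on the control diet, and satellite cell markers 2 of 6 higher and 3 lower on each. Neutrophil markers (3 of 6 in the table) had 2 lower on the control diet and 1 on the atglistatin diet, and the lymphocyte list was left with Ighm, which was lower on both. Muscle fibre markers had 4 of 10 higher and 1 lower on the control diet and 3 and 1 on the atglistatin diet. The part of these shifts in the results on solute carriers was not tested. In whole muscle, fewer cells of a type and less RNA per cell cannot be told apart.

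Among the sodium-coupled carriers of neutral amino acids, Slc38a2, Slc38a3 and Slc38a4 rose with corticosterone on both diets. Slc38a2 (SNAT2), the system A carrier that also adapts to amino acid supply, ran from 67.1 to 107 CPM (median 85.3) in EtOH_CON, 48.2 to 107 (median 84.6) in EtOH_ATGLi, then 90.5 to 156 (median 115) in Cort_CON and 67.3 to 184 (median 105) in Cort_ATGLi. The corticosterone groups lay higher but overlapped the vehicle groups on each diet. The rise was 1.36-fold on the control diet (log2 fold change 0.45 ± 0.11, SE, adjusted p = 0.00123) and 1.36-fold on the atglistatin diet (0.44 ± 0.11, adjusted p = 0.00195). Slc38a4 (SNAT4), a second system A carrier, rose by 0.49 ± 0.12 and 0.68 ± 0.12 (log2) on the 2 diets, with medians of 103, 74.5, 139 and 122 CPM in the order of groups above. Its level in EtOH_CON p01, 141.8 CPM, was above the Cort_CON median.

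Slc38a3 (SNAT3), a system N carrier that moves glutamine in either direction, had the smallest p of the amino acid class on the control diet. It ran from 11.5 to 18.4 CPM (median 13.9) in EtOH_CON and 18.7 to 31.8 (median 24.5) in Cort_CON, and the groups did not overlap. On the atglistatin diet it ran from 9.30 to 23.1 (median 14.03) in EtOH_ATGLi and 14.7 to 27.8 (median 24.2) in Cort_ATGLi, which overlapped. The rise was 1.77-fold (log2 0.82 ± 0.11, adjusted p = 2.07e-08) and 1.58-fold (0.66 ± 0.11, adjusted p = 3.79e-06).

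The exchangers for large neutral amino acids moved unevenly. Slc3a2, the heavy chain that carries several light chains to the cell surface, rose by 0.37 ± 0.10 and 0.45 ± 0.10 (log2). Its light chain Slc7a8 (LAT2) ran from 4.45 to 14.8 CPM (median 7.14) in EtOH_CON, 5.62 to 10.7 (median 7.07) in EtOH_ATGLi, then 7.87 to 23.3 (median 11.7) in Cort_CON and 7.03 to 17.0 (median 10.8) in Cort_ATGLi. It rose by 1.69-fold and 1.53-fold (log2 0.76 ± 0.17 and 0.61 ± 0.17), and the highest EtOH_CON value was that of p01. The light chain Slc7a5 (LAT1) had medians of 0.833, 0.652, 0.368 and 0.540 CPM, near the filter level, with intervals of the log2 change from -1.51 to 0.24 and -0.67 to 1.06 (95%), too wide to place it. Slc7a6, another light chain, had a change of 0.44 ± 0.13 on the control diet, past the threshold, and 0.25 ± 0.13 on the atglistatin diet, not past it.

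Slc43a1 (LAT3), which carries branched-chain and aromatic amino acids without sodium, showed the largest rise of the amino acid class on the control diet. Its mRNA ran from 0.982 to 3.64 CPM (median 2.31) in EtOH_CON, 2.23 to 5.65 (median 3.17) in EtOH_ATGLi, then 2.67 to 12.01 (median 6.87) in Cort_CON and 2.63 to 10.8 (median 6.20) in Cort_ATGLi, with overlap on both diets. The rise was 3.03-fold on the control diet (log2 1.60 ± 0.25, adjusted p = 9.92e-07) and 1.85-fold on the atglistatin diet (0.89 ± 0.24, adjusted p = 0.00348). The difference between those responses did not pass the interaction test (-0.71 ± 0.34, adjusted p = 0.904).

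The carriers of cationic amino acids moved in opposite directions. Slc7a2 (CAT2) ran from 29.7 to 44.1 CPM (median 34.8) in EtOH_CON, 28.1 to 55.1 (median 37.3) in EtOH_ATGLi, then 36.5 to 103 (median 54.6) in Cort_CON and 45.1 to 128 (median 65.2) in Cort_ATGLi, and rose by 1.65-fold and 1.80-fold (adjusted p = 3.87e-05 and 3.52e-06). Slc7a1 (CAT1) fell by 1.55-fold and 1.48-fold (adjusted p = 0.0115 and 0.0324), at medians of 2.85 and 1.83 CPM on the control diet and 2.59 and 1.496 on the atglistatin diet. On the atglistatin diet the Slc7a1 call was lost when any 1 of 6 libraries was left out (EtOH_ATGLi p08, p10, p12, p13 or p14, or Cort_ATGLi p38), with an adjusted p of at most 0.0645.

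The peptide carriers Slc15a4 and Slc15a5 rose on both diets. Slc15a4, a lysosomal carrier of histidine and dipeptides, ran from 18.5 to 27.7 CPM (median 24.1) in EtOH_CON and 28.98 to 68.5 (median 35.2) in Cort_CON without overlap, and from 19.9 to 36.2 (median 22.7) in EtOH_ATGLi and 32.1 to 97.4 (median 43.9) in Cort_ATGLi with overlap. It rose by 1.55-fold and 1.95-fold (log2 0.63 ± 0.14 and 0.96 ± 0.14). The highest Cort_ATGLi library was p41, and without it the log2 change on that diet was 0.84 ± 0.12. Slc15a5, a less studied family member, ran from 4.08 to 12.4 CPM (median 7.91) in EtOH_CON and 9.30 to 29.3 (median 20.6) in Cort_CON, a 2.60-fold rise (adjusted p = 1.85e-07), and rose 2.31-fold on the atglistatin diet (adjusted p = 4.69e-06).

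The carriers of taurine and creatine fell on both diets. Slc6a6, which takes up taurine, ran from 30.6 to 86.4 CPM (median 78.3) in EtOH_CON, 49.8 to 97.9 (median 75.0) in EtOH_ATGLi, then 36.6 to 79.3 (median 47.2) in Cort_CON and 40.3 to 72.3 (median 54.1) in Cort_ATGLi, with overlap on both diets. The EtOH_CON library at the low end was p01, and the next lowest of that group had 66.95 CPM. The fall was 1.45-fold and 1.34-fold (log2 -0.54 ± 0.12 and -0.43 ± 0.12). The creatine carrier Slc6a8 ran from 29.9 to 41.9 CPM (median 34.8) in EtOH_CON and 20.9 to 32.7 (median 25.7) in Cort_CON, and from 31.5 to 46.3 (median 37.5) in EtOH_ATGLi and 26.9 to 36.4 (median 29.9) in Cort_ATGLi. It fell by 1.35-fold (adjusted p = 1.93e-06) and 1.22-fold (adjusted p = 0.00114).

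The other calls of the class came on 1 diet each. The proton-coupled carriers Slc36a1 and Slc36a4 fell on the control diet (-0.37 ± 0.11 and -0.81 ± 0.23, log2), and had changes of -0.12 ± 0.11 and -0.32 ± 0.24 on the atglistatin diet that did not pass. Slc1a1, a glutamate carrier, rose on the control diet at medians of 0.656 and 1.26 CPM. Slc1a5, which exchanges glutamine and other neutral amino acids, had 0.12 ± 0.16 on the control diet, not past the threshold, and rose by 0.51 ± 0.17 on the atglistatin diet. Of 15 tested genes that respond to amino acid shortage through ATF4, 3 rose and 4 fell on the control diet and 4 rose and 4 fell on the atglistatin diet, with medians of -0.13 and -0.10. Among them Ddit4, an inhibitor of mTORC1, rose by 2.99 ± 0.54 and 2.47 ± 0.53 and Vldlr, a lipoprotein receptor, fell by 0.66 and 0.55 on the log2 scale. Ddit3, a stress transcription factor, fell by 0.81 on the control diet, and Atf5, a related factor, fell by 0.55 on the atglistatin diet.

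**Figure D3:**
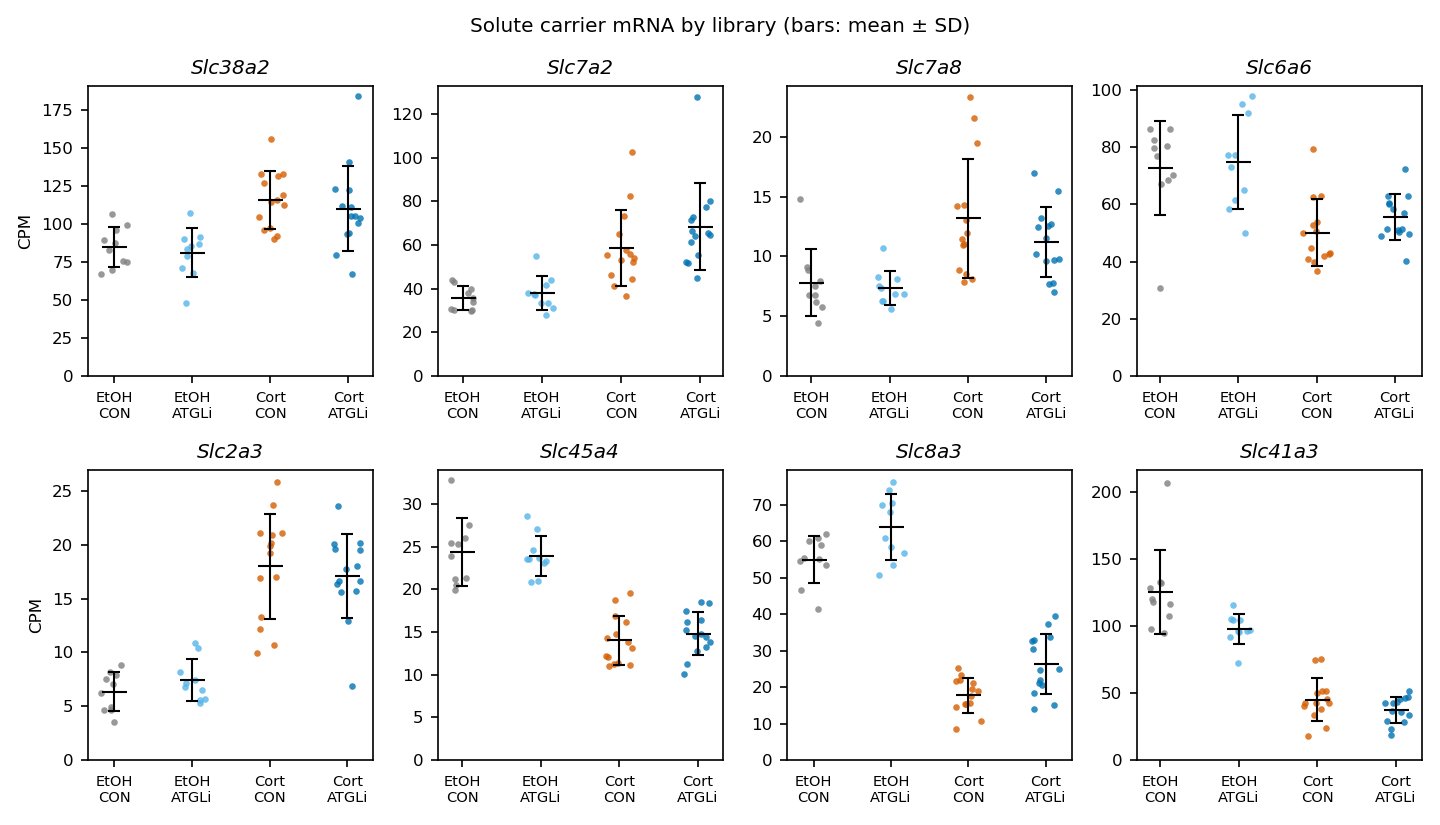
CPM (y axis, linear, from 0) of 8 members in the 48 libraries, 1 point each, by group (x axis), with mean and SD as bars. Slc38a2, Slc7a2, Slc7a8 and Slc2a3 are higher in the corticosterone groups and Slc6a6, Slc45a4, Slc8a3 and Slc41a3 lower. For Slc8a3, Slc41a3 and Slc45a4 the corticosterone and vehicle groups do not overlap on either diet, while the single low EtOH_CON point of Slc6a6 is p01.

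Among sugar carriers, Slc2a3 (GLUT3), a high-affinity glucose transporter, was the only one of 11 called higher. It ran from 3.52 to 8.83 CPM (median 6.65) in EtOH_CON and 9.94 to 25.8 (median 19.6) in Cort_CON, and the groups did not overlap. In EtOH_ATGLi it ran from 5.29 to 10.9 (median 6.96) and in Cort_ATGLi from 6.89 to 23.6 (median 17.2), where p41 was the lowest and the groups overlapped. The rise was 2.82-fold (log2 1.498 ± 0.17, adjusted p = 1.49e-10) and 2.30-fold (1.20 ± 0.16, adjusted p = 5.82e-08).

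The other called sugar carriers fell. Slc45a4, a member of the sucrose-transporter-like family, ran from 19.9 to 32.8 CPM (median 24.6) in EtOH_CON, 20.9 to 28.6 (median 23.5) in EtOH_ATGLi, then 11.1 to 19.6 (median 13.5) in Cort_CON and 10.1 to 18.6 (median 14.6) in Cort_ATGLi, and neither diet showed overlap. It fell 1.73-fold and 1.61-fold (adjusted p = 1.07e-09 and 6.53e-08). Slc2a10 (GLUT10) fell 2.19-fold and 1.61-fold at medians of 2.35, 1.90, 1.08 and 1.08 CPM. Without EtOH_ATGLi p10 its call on the atglistatin diet was lost (adjusted p 0.054).

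Slc2a12 (GLUT12) fell by smaller amounts, 1.34-fold and 1.22-fold, and its call on the atglistatin diet was lost without EtOH_ATGLi p06 (adjusted p 0.0658). The Slc2a12 locus overlaps Tbpl1 on the other strand. Slc5a3, which takes up myo-inositol, fell by 1.48-fold and 1.60-fold, shares its strand and locus with Mrps6 so that their reads may be mixed, and lost its call without EtOH_CON p09 or p10 on the control diet (adjusted p at most 0.0599) and without EtOH_ATGLi p13 on the atglistatin diet (0.0749). Slc2a1 (GLUT1), the basal glucose transporter, fell by 1.37-fold on the control diet (adjusted p = 0.0128), while its change of -0.087 ± 0.15 on the atglistatin diet did not pass (95% interval -0.38 to 0.21). Slc37a4, the glucose-6-phosphate carrier of the endoplasmic reticulum, had -0.20 ± 0.13 on the control diet, not past the threshold, and fell by 1.40-fold on the atglistatin diet (adjusted p = 0.00279).

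Monocarboxylate carriers split. Slc16a3 (MCT4), the lactate exporter of fast fibres, ran from 190.3 to 271 CPM (median 232) in EtOH_CON, 193 to 251 (median 225) in EtOH_ATGLi, then 224 to 558 (median 350.1) in Cort_CON and 183 to 391 (median 294) in Cort_ATGLi. It rose by 1.59-fold (adjusted p = 1.21e-06) and 1.36-fold (adjusted p = 0.00104), with overlap on both diets. Slc16a1 (MCT1), which favours lactate uptake, fell by 1.21-fold on the control diet (adjusted p = 0.0356), a call lost when any 1 of 7 libraries was left out (EtOH_CON p09, p10, p15 or p16, Cort_CON p29, p34 or p35), with an adjusted p of at most 0.088. On the atglistatin diet its change of -0.14 ± 0.10 did not pass.

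Slc16a6, linked to ketone body export, fell by 1.71-fold and 1.25-fold, and its locus overlaps Amz2 and Arsg on the other strand. Slc16a9 (MCT9) rose by 1.64-fold and 1.69-fold. Basigin (Bsg), the chaperone that MCT1 and MCT4 need to reach the surface, rose by 0.43 ± 0.10 (log2) on the control diet. Of 14 tested chaperones and kinases that act on carriers 3 rose and 2 fell on the control diet and 4 rose and 1 fell on the atglistatin diet. Sgk1, a kinase induced by glucocorticoids, rose by 0.69 ± 0.14 and 0.48 ± 0.14, Wnk1, which regulates chloride carriers, fell by 0.30 and 0.31 on the log2 scale, and Mtor rose by 0.39 ± 0.10 on the atglistatin diet.

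Slc8a3 (NCX3), the plasma membrane exchanger that trades sodium for calcium in fast muscle, had the smallest p of all members on both diets. Its mRNA ran from 41.5 to 61.8 CPM (median 55.2) in EtOH_CON, 50.7 to 76.1 (median 64.5) in EtOH_ATGLi, then 8.43 to 25.2 (median 18.3) in Cort_CON and 13.9 to 39.5 (median 24.8) in Cort_ATGLi. No corticosterone library reached the lowest vehicle library of its diet. The fall was 3.08-fold on the control diet (log2 -1.62 ± 0.14, adjusted p = 2.07e-13) and 2.44-fold on the atglistatin diet (-1.28 ± 0.14, adjusted p = 3.25e-10). The relatives Slc8a1 and Slc8a2 were under the filter, and Slc8b1, the sodium-calcium exchanger of mitochondria, fell 1.504-fold and 1.53-fold at medians near 1 CPM. Without EtOH_ATGLi p11 the Slc8b1 call on the atglistatin diet was lost (adjusted p 0.0608).

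The proton exchanger Slc9a2 and the anion exchangers Slc26a6 and Slc26a2 fell on both diets. The sodium-proton exchanger Slc9a2 ran from 21.9 to 33.8 CPM (median 27.03) in EtOH_CON, 19.7 to 29.6 (median 24.9) in EtOH_ATGLi, then 10.8 to 25.9 (median 17.8) in Cort_CON and 11.99 to 19.4 (median 15.6) in Cort_ATGLi, without overlap on the atglistatin diet. It fell 1.49-fold and 1.57-fold (adjusted p = 1.32e-05 and 2.19e-06). Slc26a6, an anion exchanger, fell 1.65-fold and 1.48-fold, and the sulphate carrier Slc26a2 fell 1.30-fold and 1.35-fold.

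The bicarbonate carrier Slc4a4 fell on the control diet (-0.49 ± 0.14, adjusted p = 0.00463) and had -0.031 ± 0.14 on the atglistatin diet (95% interval -0.31 to 0.25), and the interaction did not pass (adjusted p = 0.872). The related bicarbonate carriers Slc4a7 and Slc4a8 rose on the control diet by 1.21-fold and 1.63-fold. Slc12a2 (NKCC1), which brings sodium, potassium and chloride into cells, ran from 42.8 to 60.2 CPM (median 50.2) in EtOH_CON, 49.7 to 66.1 (median 58.3) in EtOH_ATGLi, then 52.3 to 125 (median 56.7) in Cort_CON and 60.5 to 118 (median 86.5) in Cort_ATGLi. The highest Cort_CON library was p45, and the next had 74.68 CPM. Slc12a2 rose by 1.28-fold and 1.51-fold (log2 0.35 ± 0.10 and 0.60 ± 0.10). The phosphate carrier Slc20a1 had 0.21 ± 0.12 and 0.20 ± 0.12, not past the threshold. The calls left in the class were Slc26a10, lower on the control diet, and Slc24a2, higher on the atglistatin diet, both near the filter level.

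Many of these carriers run on the sodium gradient kept by the sodium pump. Of 9 tested pump subunits and regulators 3 rose and 3 fell on the control diet and 2 rose and 1 fell on the atglistatin diet. Atp1b4, a muscle protein of the beta subunit family, rose by 0.90 ± 0.21 (log2) on the control diet, and the regulator Fxyd6 fell by 0.59 on the log2 scale on the atglistatin diet.

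Zinc carriers held the largest rises among members with a mean of at least 1 CPM. Slc39a14 (ZIP14), which imports zinc, iron and manganese and is known to rise in muscle wasting, ran from 1.49 to 3.31 CPM (median 2.57) in EtOH_CON, 1.65 to 2.79 (median 2.09) in EtOH_ATGLi, then 2.70 to 44.8 (median 8.74) in Cort_CON and 2.88 to 28.1 (median 5.38) in Cort_ATGLi. Every Cort_ATGLi library lay above every EtOH_ATGLi library, whereas the lowest Cort_CON library lay within EtOH_CON. The spread within the corticosterone groups was wide. The rise was 6.05-fold on the control diet (log2 2.60 ± 0.40, adjusted p = 1.06e-06) and 3.502-fold on the atglistatin diet (1.81 ± 0.41, adjusted p = 0.000555). The highest Cort_ATGLi library was p41, the next had 10.48 CPM, and without p41 the log2 change was 1.45 ± 0.37 (adjusted p = 0.00217).

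Slc30a2 (ZnT2), which moves zinc into vesicles, ran from 8.19 to 11.2 CPM (median 9.45) in EtOH_CON, 4.95 to 10.01 (median 6.77) in EtOH_ATGLi, then 10.1 to 54.0 (median 26.4) in Cort_CON and 6.25 to 26.6 (median 17.9) in Cort_ATGLi. Both diets showed overlap only at the low end of the corticosterone group. The rise was 3.15-fold (log2 1.66 ± 0.20, adjusted p = 3.53e-09) and 2.43-fold (1.28 ± 0.20, adjusted p = 2.17e-06). The surface importer Slc39a1 (ZIP1) fell 1.48-fold and 1.40-fold, at medians of 36.0 and 24.3 CPM on the control diet. The exporter Slc30a1 (ZnT1), a classical zinc-induced gene, had -0.27 ± 0.14 and -0.053 ± 0.14, not past the threshold.

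Metallothioneins, the zinc-binding proteins induced by both zinc and glucocorticoids, rose in the same comparisons, Mt1 by 3.96 ± 0.42 and 3.88 ± 0.41 and Mt2 by 4.45 ± 0.50 and 4.49 ± 0.50 (log2). They belong to a list of 17 tested metal handling genes, of which 4 rose and 3 fell on the control diet and 3 rose and 3 fell on the atglistatin diet, with medians of 0.027 and 0.014. Steap3, a ferric reductase, fell by 1.20 and 0.89 on the log2 scale.

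Among iron and copper carriers, ferroportin and Slc31a2 rose on both diets. Slc40a1 (ferroportin), the iron exporter, ran from 16.6 to 25.4 CPM (median 20.4) in EtOH_CON and 27.7 to 56.5 (median 34.4) in Cort_CON without overlap, and from 17.7 to 31.4 (median 24.3) in EtOH_ATGLi and 13.6 to 45.3 (median 37.02) in Cort_ATGLi, where p41 was the lowest. It rose 1.79-fold and 1.52-fold (adjusted p = 1.71e-07 and 9.10e-05). Macrophages and red cell precursors also make ferroportin. Macrophage markers were lower as given above, while erythroid markers, 4 of 5 higher on the control diet and 1 on the atglistatin diet, summed to 720 to 1090 CPM in EtOH_CON, 703 to 1627 in EtOH_ATGLi, against 738 to 1742 in Cort_CON and 554 to 2432 in Cort_ATGLi. Their part in the ferroportin result was not tested. Slc11a2 (DMT1), which imports ferrous iron, fell 1.26-fold on the control diet, and its -0.16 ± 0.075 on the atglistatin diet did not pass. The copper carrier Slc31a2 (CTR2) rose 1.65-fold and 1.37-fold, while the main copper importer Slc31a1 (CTR1) had 0.029 ± 0.092 and 0.08 ± 0.092 (95% intervals -0.15 to 0.21 and -0.10 to 0.26).

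Slc41a3, a magnesium carrier of the mitochondrial membrane, showed the largest fall on the atglistatin diet among members with a mean of at least 1 CPM. Its values ran from 94.8 to 207 CPM (median 119) in EtOH_CON, 72.6 to 116 (median 96.6) in EtOH_ATGLi, then 17.6 to 75.2 (median 42.7) in Cort_CON and 18.8 to 51.7 (median 39.6) in Cort_ATGLi. The groups did not overlap on either diet, and the highest value, in EtOH_CON, was that of p01. The fall was 2.79-fold (log2 -1.48 ± 0.16, adjusted p = 1.97e-10) and 2.61-fold (-1.39 ± 0.16, adjusted p = 2.22e-09). The haem carrier Slc48a1 and the zinc importer Slc39a3 fell on the control diet (-0.20 ± 0.062 and -0.25 ± 0.10), and the zinc carrier Slc30a4 on the atglistatin diet (-0.25 ± 0.09).

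A fatty acid carrier rose and a choline carrier fell on both diets. Slc27a1 (FATP1), which takes up long-chain fatty acids, ran from 4.42 to 10.6 CPM (median 7.75) in EtOH_CON, 5.60 to 11.8 (median 8.59) in EtOH_ATGLi, then 8.90 to 17.2 (median 11.9) in Cort_CON and 9.12 to 17.9 (median 12.3) in Cort_ATGLi, and rose 1.61-fold and 1.48-fold. The choline carrier Slc44a1 ran from 11.97 to 17.2 CPM (median 14.8) in EtOH_CON and 6.78 to 11.3 (median 9.23) in Cort_CON without overlap and fell 1.61-fold, and it fell 1.41-fold on the atglistatin diet. The carnitine carrier Slc22a5 had 0.29 ± 0.26 and 0.25 ± 0.27, not past the threshold. Slc10a6, whose promoter window holds the glucocorticoid response element, rose 2.56-fold and 2.39-fold (adjusted p = 0.00363 and 0.00823) at medians of 0.605, 0.849, 2.06 and 1.68 CPM.

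A few members of this class passed the test from levels close to none. Slc6a2, the noradrenaline transporter of sympathetic nerve endings, summed to 172 counts in the 10 EtOH_CON libraries, 115 in EtOH_ATGLi, 14 in the 14 Cort_CON libraries and 26 in Cort_ATGLi. It was at 0 in 8 Cort_CON and 6 Cort_ATGLi libraries, and fell with log2 changes of -3.77 ± 0.49 and -2.56 ± 0.47. Schwann cell markers summed to 77.4 to 370 CPM in EtOH_CON, 69.8 to 358 in EtOH_ATGLi, then 58.0 to 200 in Cort_CON and 72.1 to 215 in Cort_ATGLi, with 3 of 8 lower on the control diet and 0 on the atglistatin diet, and the part of nerve content was not tested.

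Slc17a7 summed to 10 counts in EtOH_CON, 8 in EtOH_ATGLi, 218 in Cort_CON and 66 in Cort_ATGLi, and Slc22a12, the urate carrier known from kidney, to 10, 11, 156 and 138. Their rises (log2 4.04 ± 0.58 and 2.33 ± 0.68, 3.52 ± 0.55 and 3.04 ± 0.55) therefore rest on a handful of vehicle reads and depend on how the fit treats them. For both only Cort_CON had a median above the filter level, and for Slc6a2 only the vehicle groups, so these members were tested through the groups where they are high and their calls are a description. Slc22a12 also lies within Nrxn2 on the other strand. The other calls of the class were Slc47a1, an exporter of organic cations, higher on both diets, Slc22a17 and Slc18b1, lower on the control diet, and Slc10a7, lower on the atglistatin diet.

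Among the nucleoside carriers Slc28a2 fell on both diets. Slc28a2 (CNT2), which concentrates purine nucleosides with sodium, ran from 4.25 to 7.88 CPM (median 6.34) in EtOH_CON and 0.732 to 3.88 (median 1.97) in Cort_CON without overlap, and from 3.71 to 7.36 (median 5.94) in EtOH_ATGLi and 1.38 to 5.09 (median 2.43) in Cort_ATGLi with overlap. It fell 2.83-fold (adjusted p = 1.35e-09) and 2.12-fold (adjusted p = 3.20e-06). The lysosomal carrier Slc29a3 fell 1.79-fold on the control diet and had -0.30 ± 0.15 on the atglistatin diet, not past the threshold. The surface carrier Slc29a1 (ENT1) had -0.20 ± 0.095 and -0.05 ± 0.10, neither past it.

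Slc43a3, which carries purine bases, rose 1.59-fold and 1.33-fold. Slc35f5 and Slc35e4, orphan carriers, rose 1.65-fold and 1.65-fold, and 1.51-fold and 1.37-fold. Slc35b1, a nucleotide exchanger of the endoplasmic reticulum, rose 1.16-fold and 1.12-fold. The carrier of GDP-fucose, Slc35c1, fell on both diets (-0.38 ± 0.13 and -0.37 ± 0.13). The control diet calls left were Slc35e1, higher, and the UDP-galactose carrier Slc35a2, lower. Of the 5 genes that are not carriers, Slc4a1ap rose on the control diet (0.28 ± 0.082) and Slc7a6os on the atglistatin diet (0.40 ± 0.14, adjusted p 0.0526 without Cort_ATGLi p41).

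Atglistatin in vehicle mice gave no call. Of 160 tested members 0 passed edgeR's threshold, 9 had an unadjusted p under 0.05, and DESeq2 and limma voom called 0 too. Over all genes 0.0238% passed (0.0159% higher, 0.00794% lower), and 0.0318% had groups that did not overlap, as 0 members did. The smallest adjusted p was 0.349, for Slc38a4 (-0.41 ± 0.13, log2). Among the 139 members with a mean of at least 1 CPM the changes lay between -0.69 (Slc36a4) and 0.58 (Slc43a1), and the 95% interval reached a median of 0.296 to either side of the estimate, so small changes were not detectable.

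In corticosterone mice atglistatin changed 6 of 160 members, 3.75% beside 1.6% of all genes (0.667% higher, 0.929% lower), and 26 had an unadjusted p under 0.05. Of the 6, 4 were higher in Cort_ATGLi than in Cort_CON and 2 lower. This comparison uses the libraries of both corticosterone groups, which also enter the comparisons with vehicle. The median change over members was 0.018 (log2), beside 0.0011 over all genes. No member's values were free of overlap, beside 0.00794% of all genes. Of the marker lists, Thbs4 of 8 tendon markers and Ighm were lower and no other marker passed. Of the 14 chaperones and kinases Akt1, a kinase of insulin signalling, rose (0.28 ± 0.068, log2), and no gene passed among the pump, ATF4 and metal handling lists.

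The 2 members that were lower were Slc30a2 and Slc17a7. Slc30a2 had medians of 26.4 CPM in Cort_CON and 17.9 in Cort_ATGLi, with overlapping ranges, and was 1.63-fold lower (log2 -0.71 ± 0.17, adjusted p = 0.0198). The call was lost without Cort_CON p33 (adjusted p 0.0511). It was also lost with only the 2 groups compared, where 0 members were lower. Slc17a7 had medians of 0.874 and 0.253 CPM (log2 -1.93 ± 0.41). Only Cort_CON, the higher group of this comparison, had a Slc17a7 median above the filter level, so that its call is a description too. Slc39a14 had a change of -1.01 ± 0.32 that did not pass (adjusted p = 0.105). Without Cort_ATGLi p41 it was -1.37 and passed (adjusted p = 0.00763). In the fit with both p41 and EtOH_CON p01 left out 5 members were lower and 3 higher, beside 2.19% of all genes (0.983% higher, 1.2% lower). In the fit with only the 5 nondiabetic Cort_CON libraries 4 were lower and 2 higher, beside 1.39% of all genes (0.454% higher, 0.939% lower).

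Slc8a3, Slc12a2 and Slc6a8 were among the 4 members that were higher. With only the 2 groups compared, 1 member was higher. Slc8a3 was 1.47-fold higher in Cort_ATGLi (log2 0.56 ± 0.13, adjusted p = 0.0166), with medians of 18.3 and 24.8 CPM, both under the vehicle groups. Its adjusted p was 0.362 against the 5 nondiabetic Cort_CON libraries. Slc12a2 was 1.34-fold higher (adjusted p = 0.00598), with medians of 56.7 and 86.5 CPM. Slc6a8 was 1.18-fold higher (adjusted p = 0.0455), a call lost in 18 of the 28 fits that left out 1 library, with an adjusted p of at most 0.0919.

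**Figure D4:**
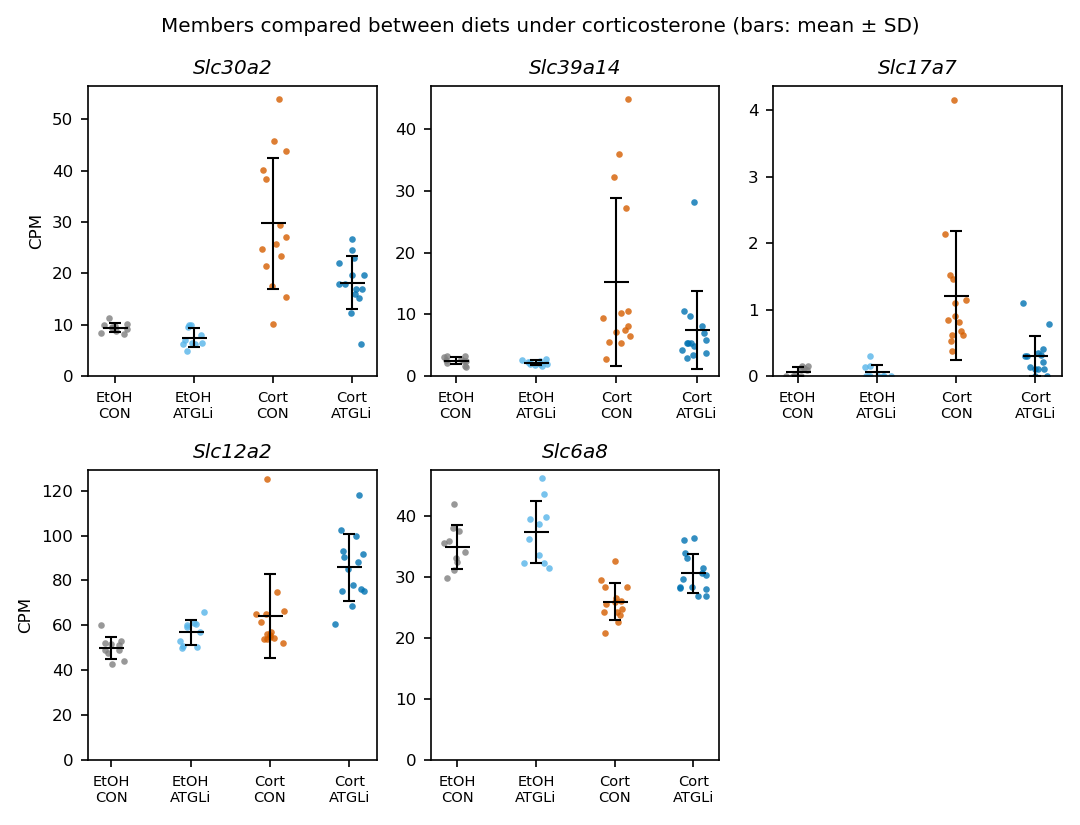
CPM (y axis, linear, from 0) of 5 members in the 48 libraries, 1 point each, by group (x axis), with mean and SD as bars that stop at 0. Slc30a2 and Slc17a7 are lower and Slc12a2 and Slc6a8 higher in Cort_ATGLi than in Cort_CON, with overlap in each panel, and Slc39a14, which did not pass, has 1 Cort_ATGLi library at 28.1 CPM apart from the rest.

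The test of whether the response to corticosterone differed between diets passed for 0 of 160 members (8 at an unadjusted p under 0.05, smallest adjusted p 0.698), beside 0.0397% of all genes (0.0238% higher, 0.0159% lower), and DESeq2 and limma voom also gave 0. Members past the threshold on 1 diet only are therefore not shown to respond differently. The 95% interval reached a median of 0.389 (log2) to either side among members of at least 1 CPM.

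Within Cort_CON, no member passed the test between the 9 libraries labelled diabetic and the 5 labelled nondiabetic. In edgeR's test 0 of 164 members passed (9 at an unadjusted p under 0.05, smallest adjusted p 0.872), as did 0 of 13084 genes, and DESeq2 and limma voom also gave 0. Changes of members with a mean of at least 1 CPM lay between -0.88 (Slc36a4) and 0.71 (Slc35a5, log2), with a 95% interval that reached a median of 0.37 to either side, so small differences were not detectable. In the 5 nondiabetic Cort_CON libraries alone, 24 of 164 members were higher and 25 lower than in EtOH_CON, beside 22.7% of all genes (10.7% higher, 12% lower), and 9 of the genes named above lost the call (Slc10a6, Slc12a2, Slc16a1, Slc2a1, Slc36a4, Slc38a2, Slc4a1ap, Slc5a3 and Slc7a1). That fit has fewer samples. Slc39a14, Slc30a2 and Slc8a3 changed by 2.92 ± 0.44, 1.94 ± 0.20 and -1.44 ± 0.18 (log2) in it.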

How the data were processed

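Per the labels' protocols, RNA of 48 muscle samples was read from its 3′ ends with a QuantSeq kit (50 bp, forward). The deposited table holds raw counts of reads for 14125 genes. The submitters' processing notes name GRCm38, DESeq2 1.24.0 and R 3.6.1. How reads were aligned and counted, and with which strand setting, is not given in the sources used. In 47 libraries every deposited count was even, and in EtOH_ATGLi p13 49.6% were odd, so halved counts were tried. On halved counts the filter kept 136 members. Symbols came from GENCODE M21 (14094 of 14125 IDs matched). Of the members, 22 overlap a counted gene on the other strand, and reads of near-identical genes may have been split or lost in counting. The deposited normalized values were not used.

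Computed here: filterByExpr (minimum count 10, minimum total 15) kept 12592 genes. TMM scaling and edgeR 4.0.16's robust quasi-likelihood test (R 4.3.3) fitted the 4 groups together, two-sided, with Benjamini-Hochberg adjustment over all genes and a threshold of 0.05. Disease state used a fit of 5 classes. CPM values were computed from the deposited counts and are not scaled by gene length. Alternatives were RLE scaling, no filter, DESeq2 1.42.0, limma 3.58.1 voom, only the groups compared, only nondiabetic Cort_CON libraries and each library left out. Leaving out 2 libraries that stood apart, and fitting the libraries with shared numbers without a block, were chosen after seeing the data. The scripts were tested on simulated data.

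The members, lists and rules were chosen with earlier results of these data known. In each pairwise comparison the rule named the 10 largest rises and 10 largest falls with a mean of at least 1 CPM, the 3 smallest p of each class, 29 tested genes of a fixed roster of 30, and the 3 smallest p of each partner list. Other members that complete a class count were named after their values were seen. Some genes that the rule named are not reported here. Total counts of 10453888 to 24034481 put a gene at 1 CPM at about 10 to 24 deposited counts. Nearly all libraries hold only even counts, so how many reads these stand for is not known. The labels do not state that samples are separate mice, so p-values measure the spread between samples. No pair of libraries within a group agreed within sampling noise (lowest chi-square per degree of freedom 7.87 over 272 pairs).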

Additional observations from a re-analysis of the deposited data

Results flagged for a closer look

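Among the 60 named genes, 120 groups of 10 vehicle libraries were screened for a single library far from the rest by Dixon's criterion. About 1 of 20 groups of normally distributed values meets it. That rate does not hold for groups mostly at 0, such as Slc17a7 (7 of 10 libraries) and Slc22a12 (6 of 10) in EtOH_ATGLi. The criterion was met 12 times, in 11 genes. Library p01 of EtOH_CON gave 5 of the 12: it was the highest for Slc38a4 (141.8 CPM), Slc41a3 (206.8 CPM), Slc7a6os (13.62 CPM) and Slc7a8 (14.82 CPM) and the lowest for Slc6a6 (30.58 CPM). In the same group Slc1a5 was highest in p10 (26.33 CPM) and Slc2a12 lowest in p12 (4.72 CPM). In EtOH_ATGLi the single libraries were p11 for Slc17a7 (0.294 CPM) and Slc7a8 (10.73 CPM), p14 for Slc22a12 (0.3623 CPM), p13 for Slc5a3 (4.89 CPM) and p07, the lowest, for Slc36a4 (0.2901 CPM). Groups of 14 were not screened.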

How the results depend on the processing

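Under RLE scaling, DESeq2 and limma voom the counts of members changed by corticosterone stayed within 1.5 times those reported on both diets, and with 1 library left out they ran from 29 to 32 higher and 30 to 35 lower on the control diet and from 28 to 30 and 19 to 27 on the atglistatin diet. The counts for atglistatin in corticosterone mice moved more. With 1 library left out they ran from 2 to 6 higher and from 1 to 5 lower. The higher count was 2 without Cort_ATGLi p14, p18, p23 or p48 or Cort_CON p28, p33, p34, p35, p46, p49 or p50, and the lower count was 5 without Cort_ATGLi p41 and 1 without Cort_CON p33. The higher count was 2 with no filter, 1 with only the 2 groups compared and 2 with only nondiabetic Cort_CON libraries. The lower count was 1 on halved counts, 1 in limma voom, 0 with only the 2 groups compared, 4 with only nondiabetic Cort_CON libraries and 5 with both libraries that stand apart left out. The cause of these shifts was not tested. Counts for atglistatin in vehicle mice, the interaction and disease state were 0 in every fit run.

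Replicate numbers were shared by the groups on the atglistatin diet (p13 and p14) and by the vehicle groups (p09 to p12). Deviations of same-numbered libraries correlated at -0.019 for p13 and p14 and at 0.0509, 0.133, -0.0468 and -0.0285 for p09 to p12. The p13 and p14 values, from only 2 pairs, were identical and are not separate checks. No correlation was above 0.133, but so few pairs cannot decide whether the numbers pair the samples. With the number as a replicate block, p13 and p14 alone (2 libraries in each group) were fitted for corticosterone on the atglistatin diet. Of 154 tested members 21 were higher and 12 lower, and the same libraries without the block gave 17 and 11. The share over all genes was not computed for these fits. In the vehicle groups the block gave 0. In the block fit Slc2a1 (0.2605), Slc29a1 (0.0847) and Slc31a1 (-0.087) changed sign on the atglistatin diet, none of them past the threshold before or after.

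Members named outside the rule, such as Slc7a6 and Slc1a1, were not followed gene by gene across the alternative fits. Among the genes that the rule named, none past the threshold changed sign. In the comparisons of corticosterone with vehicle, some uncalled genes near 0 did with 1 library left out: Slc31a1 on the control diet (-0.002286 to 0.0636) and, on the atglistatin diet, Slc30a1 (-0.1506 to 0.04316), Slc4a4 (-0.1059 to 0.01076) and Slc7a5 (-0.04199 to 0.3904; -0.04427 with both libraries that stand apart left out). At 10453888 counts, the shallowest library, members near the filter level rest on a few reads, which limits what can be detected for them.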
